A study of Mus musculus with 9 samples.

Results

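The cell cycle engine of the cleaving mouse embryo was examined through 10 genes: 7 cyclins (*Ccna2*, *Ccnb1*, *Ccnb2*, *Ccnd1*, *Ccnd3*, *Ccne1* and *Ccne2*), the cyclin-dependent kinases *Cdk1* and *Cdk2*, and the phosphatase gene *Cdc25a*. They were taken by symbol from the 55335 entries of the expression tables, and all 10 were found. The embryos came from ICR mice, the strain named in the methods of the study, were injected with siRNA as zygotes and were collected in pools at the 8-cell stage. Control embryos carried nontargeting siRNA. MFN1-KD embryos carried siRNA against *Mfn1*, which encodes a protein of mitochondrial fusion, and H3.3-KD embryos carried siRNA against both genes of the histone variant H3.3, *H3f3a* and *H3f3b*. Each group had 3 libraries made by Smart-Seq2, a method that amplifies cDNA from polyadenylated RNA. The labels give 5 to 10 embryos per group and the methods give 10. The paper calls the 3 libraries of a group biological replicates. Neither the labels nor the methods say whether they came from separate collections. The p-values measure the spread between these libraries, and how much of it is technical is not known. No group carries a deletion. The injected RNA lowers a transcript without removing the gene, and each value is an average over whole embryos.

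A cyclin binds and activates a cyclin-dependent kinase (CDK). D-type cyclins work with CDK4 and CDK6 in G1, cyclin E with CDK2 at entry into S phase, cyclin A2 with CDK2 and CDK1 through S and G2, and B-type cyclins with CDK1 to drive mitosis. CDC25A removes inhibitory phosphates from CDK2 and CDK1. Cleavage divisions of the early mouse embryo run without growth of the embryo, first on maternal transcripts and then on transcripts of the embryonic genome.

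Levels are given as FPKM, fragments counted per kilobase of gene and scaled to library size, and comparisons were made on log2(FPKM + 1) with limma over the 13011 entries with a mean of at least 1 FPKM, which all 10 genes reached. A gene is called when its Benjamini-Hochberg adjusted p over those entries is under 0.05. Silencing was visible in the targeted transcripts. *Mfn1* was at 51.57, 22.55 and 23.77 FPKM in control and at 9.54, 4.4 and 1.15 FPKM in MFN1-KD, with no overlap. In H3.3-KD *H3f3a* stood at 7.73% and *H3f3b* at 8.24% of the control mean. Control libraries listed 21643 to 22507 entries above 0 FPKM and H3.3-KD libraries 23655 to 24820. MFN1-KD libraries listed 15577 to 20842, with the fewest in replicate 3. The sequencing depth is unknown, since the files hold no counts. Over all genes tested, the median log2 fold change against control was 0.26 for H3.3-KD and -0.08 for MFN1-KD, and median-ratio scaling brought the former to -0.00. Changes in H3.3-KD are therefore also given relative to 0.26.

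Of 12 markers of blastomeres, 11 had a mean of at least 1 FPKM, and the exception was *Sox2*. Their summed level was 10870 to 14060 FPKM in the control libraries, 16910 to 20560 with *Mfn1* silenced and 6985 to 8684 with H3.3 silenced. It is nearly all *Dppa3*, with means of 12700 FPKM in control, 18440 with *Mfn1* silenced and 6889 with H3.3 silenced. All H3.3-KD libraries were above control in 6 of the 12 (*Pou5f1*, at 7.24 against 262 FPKM, *Klf17*, at 36.9 against 284 FPKM, *Tfap2c*, *Tead4*, *Klf5* and *Cdx2*) and below it in *Dppa3*. All MFN1-KD libraries were below control in *Pou5f1* and *Klf17* and above it in *Dppa3*, *Tfap2c* and *Klf5*. Among all genes tested, 34.5% lay above and 18.9% below control without overlap in H3.3-KD. In MFN1-KD 11.4% lay above and 16.8% below. Of 9 markers of cumulus and granulosa cells only *Amhr2* had a mean of at least 1 FPKM, and *Fshr* and *Inhba* were listed at 0 in every library. The summed level of these 9 ran from 16.2 to 29.8 FPKM, from 10.3 to 19.3 and from 38.1 to 67.3 in control, MFN1-KD and H3.3-KD libraries. Of 8 oocyte-stored transcripts, 7 had a mean of at least 1 FPKM, with sums of 38.6 to 46.7, 28.3 to 50.6 and 32.3 to 56.7 FPKM in that order of groups. None of 6 sperm markers reached that mean. The cumulus sum, which is nearly all *Amhr2*, overlapped control in MFN1-KD and lay above it in H3.3-KD. The part of these markers in the results that follow was not tested.

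In control embryos the 10 genes spanned a wide range of levels. *Ccnb1*, a cyclin of mitotic entry, was the most abundant at 1364 ± 79.6 FPKM (SD, n = 3), which ranked 176 among the 13011 entries tested. *Cdk1*, its kinase partner, followed at 312 ± 15.1 FPKM and *Ccna2* at 270 ± 45.5 FPKM, and the ranges of these 2 genes overlapped. *Ccne1* (83.4 ± 25.5 FPKM), *Cdk2* (45.6 ± 13.7 FPKM) and *Ccnb2* (43.5 ± 2.29 FPKM) formed a middle group in which each overlapped its neighbour. *Cdc25a* (20.1 ± 6.08 FPKM), *Ccne2* (15.4 ± 2.17 FPKM) and *Ccnd3* (13.4 ± 2.89 FPKM) were not separated beyond their spread either. *Ccnd1*, a cyclin that couples G1 to growth factor signals in somatic cells, was the lowest at 1.41 ± 0.55 FPKM and ranked 10752. *Ccnb1* alone accounted for 62.9% ± 3.58 (SD, n = 3) of the summed FPKM of the 10 genes. Within each pair, the levels of *Ccnb1* over *Ccnb2* and of *Ccne1* over *Ccne2* stood at ratios of 31.4 ± 2.45 and 5.46 ± 1.55 (SD, n = 3).

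The order of the genes differed between the groups. In MFN1-KD, *Ccna2* (416 ± 37.5 FPKM) ranked above *Cdk1* (120 ± 33.4 FPKM) with no overlap, and *Ccnb2*, *Cdc25a*, *Ccnd3* and *Ccne2* lay together, each overlapping its neighbour, between 13.9 and 18.0 FPKM on average. In H3.3-KD, *Cdk1* (464 ± 33.7 FPKM) stood above *Ccna2* (353 ± 66.8 FPKM) without overlap. *Ccne2*, at 6.44 ± 1.67 FPKM, took the last place there and overlapped *Ccnd1* at 8.56 ± 3.94 FPKM. *Ccnb1* was first in all 3 groups.

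**Figure D1:**
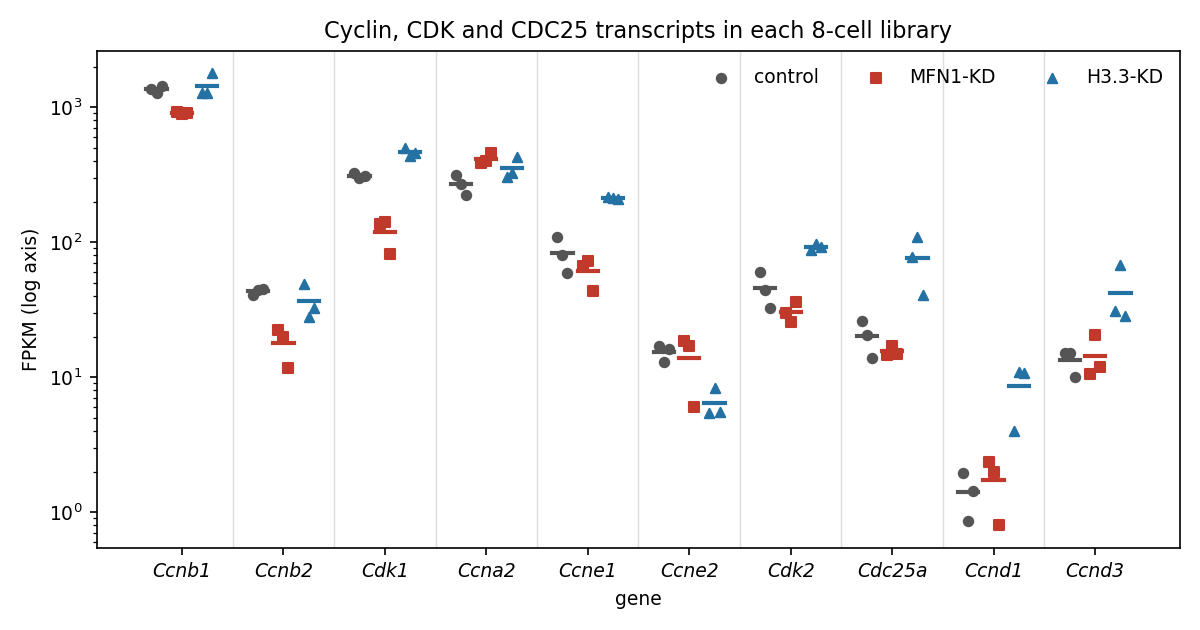
FPKM of each of the 10 genes (log axis) in each library, with control as grey circles, MFN1-KD as red squares, H3.3-KD as blue triangles and the group mean as a short line. In *Cdk1* the MFN1-KD libraries (81.2 to 141 FPKM) lie under the control libraries (299 to 328 FPKM), and in *Ccne1*, *Cdk2* and *Cdc25a* the H3.3-KD libraries lie above both other groups.

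The first comparison asked how loss of *Mfn1* transcripts altered this set at the 8-cell stage. *Cdk1*, the kinase that starts mitosis, was downregulated, to 38.4% of its control mean. It was the only one of the 10 genes called, so 1 was called lower and 0 higher, against 2.2% of all genes tested called lower and 1.15% called higher. At an unadjusted p under 0.05 in the same limma fit, 1 gene was higher (*Ccna2*) and 3 were lower (*Cdk1*, *Ccnb1* and *Ccnb2*), beside 9.21% and 14% of all genes tested. With that p and more than 2-fold, just 2 (*Cdk1* and *Ccnb2*) were lower and 0 higher, as 9.05% and 5.02% of all genes tested were. The 4 genes with an unadjusted p under 0.05 were also those whose 3 MFN1-KD libraries did not overlap the 3 controls. Of all genes tested 28.2% did not overlap, 11.4% higher and 16.8% lower. In pools of embryos, fewer cells of a type and less RNA per cell cannot be told apart.

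*Cdk1* (chromosome 10, 69335146 to 69352938, minus strand of GRCm38, also called mm10) was at 328.36, 298.67 and 308.5 FPKM in control. It was at 136.88, 140.92 and 81.22 FPKM in MFN1-KD. Every MFN1-KD library lay under every control library, and replicate 3 was the lowest. The log2 fold change was -1.42 (SE 0.23, 95% confidence interval -1.93 to -0.90, adjusted p = 0.0306). The size of this difference stayed between -1.63 and -1.16 under the 18 alternatives, but the call did not hold under 8 of them. Leaving out a control library gave adjusted p-values of 0.0618 (replicate 1), 0.134 (replicate 2) and 0.135 (replicate 3), and leaving out H3.3-KD replicate 1 or 2 gave 0.0525 and 0.0626. A fit of only the 6 libraries compared gave 0.0829, and a fit without the filter on low values 0.129.

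The B-type cyclins that pair with CDK1 lay lower as well, without passing the test. *Ccnb2* (chromosome 9, 70407692 to 70421547, minus strand) was at 40.92, 44.61 and 45.1 FPKM in control and at 22.56, 19.82 and 11.65 FPKM in MFN1-KD. The groups were well apart, with the MFN1-KD mean at 41.4% of control and a log2 fold change of -1.28 (SE 0.31, interval -1.96 to -0.60, adjusted p = 0.0519). By the limma fit it thus passed the threshold used in the study (over 2-fold with an unadjusted p under 0.05), as did *Cdk1*. The study applied that threshold to DESeq2 results, not to these values. *Ccnb2* was called under median-ratio scaling (adjusted p = 0.0479), upper-quartile scaling (0.0487), a filter at 10 FPKM (0.0315) and library weights (0.0266). *Ccnb1* (chromosome 13, 100778650 to 100786570, minus strand) was at 1371.81, 1280.51 and 1439.07 FPKM in control. It was at 921.21, 887.35 and 903.65 FPKM in MFN1-KD. These MFN1-KD libraries were tightly grouped at 66.3% of the control mean, with a log2 fold change of -0.59 (SE 0.17, interval -0.98 to -0.20, adjusted p = 0.0862, and 0.0454 with library weights).

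*Ccna2* (chromosome 3, 36564865 to 36572150, minus strand), whose product serves both S phase and mitosis, stood on the other side. It was at 315.79, 270.58 and 224.71 FPKM in control and at 387.49, 402.45 and 458.56 FPKM in MFN1-KD. All 3 knockdown libraries were above the controls, at 154% of the control mean, with a log2 fold change of 0.63 (SE 0.21, interval 0.17 to 1.09, adjusted p = 0.11). The adjusted p of this gene ran from 0.0576 to 0.338 over the 18 alternatives, so it was not called in any.

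The promoter windows of the 3 mitotic genes with lower values in MFN1-KD are shown here, since CCAAT boxes and cell cycle homology regions are known from promoters of mitotic genes. Each runs from 250 bases before to 50 bases after the transcription start in the RefSeq annotation of GRCm38.p6, is written along the strand of the gene, and has in capitals every CCAAT and TTTGAA (the core of the cell cycle homology region) and every TTTGGCGC, TTTCCCGC and TTTCGCGC (forms of the E2F site), searched on both strands. The windows are chr10:69352863-69353162 for *Cdk1*, chr9:70421505-70421804 for *Ccnb2* and chr13:100786437-100786736 for *Ccnb1*, all on the minus strand.
Cdk1: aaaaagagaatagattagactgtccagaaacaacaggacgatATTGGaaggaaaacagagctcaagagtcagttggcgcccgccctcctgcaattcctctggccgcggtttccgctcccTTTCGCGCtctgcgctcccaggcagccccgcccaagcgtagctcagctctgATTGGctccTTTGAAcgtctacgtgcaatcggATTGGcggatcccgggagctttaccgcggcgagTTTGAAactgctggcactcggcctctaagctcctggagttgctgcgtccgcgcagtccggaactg
Ccnb2: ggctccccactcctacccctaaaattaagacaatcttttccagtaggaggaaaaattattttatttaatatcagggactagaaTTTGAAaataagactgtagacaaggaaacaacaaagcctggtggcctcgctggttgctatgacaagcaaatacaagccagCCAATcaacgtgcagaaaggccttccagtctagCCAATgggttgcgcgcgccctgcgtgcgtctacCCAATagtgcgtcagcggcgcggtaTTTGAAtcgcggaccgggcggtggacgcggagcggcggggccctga
Ccnb1: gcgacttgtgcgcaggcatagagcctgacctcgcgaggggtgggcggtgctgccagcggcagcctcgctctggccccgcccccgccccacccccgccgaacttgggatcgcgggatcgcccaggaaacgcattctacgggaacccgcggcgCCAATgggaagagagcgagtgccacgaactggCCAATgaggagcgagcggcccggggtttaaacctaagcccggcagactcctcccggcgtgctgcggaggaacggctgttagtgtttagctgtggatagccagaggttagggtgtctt
*Cdk1* held 3 CCAAT (read as ATTGG on this strand), 2 TTTGAA and 1 TTTCGCGC. *Ccnb2* held 3 CCAAT and 2 TTTGAA, and *Ccnb1* 2 CCAAT and no TTTGAA. Of 32851 RefSeq promoter windows of the same length, 37.4% held CCAAT, 17.9% TTTGAA and 6.95% both, and no matches overlapped in the 3 windows shown. A match of letters is not a site shown to be bound, and the window of *Ccnb1* without TTTGAA says only that these letters are not in it.

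The remaining 6 genes overlapped between MFN1-KD and control, and none was called. *Cdk2* was at 59.79, 44.55 and 32.45 FPKM in control and at 29.71, 25.76 and 36.31 FPKM in MFN1-KD. Of the knockdown libraries 2 lay under all controls, with a log2 fold change of -0.53 (interval -1.12 to 0.05, adjusted p = 0.261). *Ccne1* had a log2 fold change of -0.43 (interval -1.04 to 0.18) and *Cdc25a* one of -0.31 (interval -1.13 to 0.51). For *Ccne2* (-0.26), *Ccnd1* (0.15) and *Ccnd3* (0.06) the intervals ran from -1.16 to 0.63, from -0.81 to 1.10 and from -0.80 to 0.92, wide enough to hold a change near 2-fold. The sign of these 3 estimates rested on single libraries. *Ccne2* became 0.21 without MFN1-KD replicate 3, *Ccnd1* -0.03 without control replicate 2 or MFN1-KD replicate 1, and *Ccnd3* -0.12 without control replicate 3 and -0.22 without MFN1-KD replicate 2.

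The second comparison asked the same of embryos with silenced H3.3 genes, against the same 3 control libraries. *Ccne1*, *Cdk2*, *Cdc25a*, *Ccnd1* and *Ccnd3* were called higher and none lower, so 5 of 10 were upregulated, against 21.8% of all genes tested called higher and 9.12% called lower. At an unadjusted p under 0.05 in this limma fit 6 were higher and 1 was lower, beside 28.9% and 13.2% of all genes tested. All 3 H3.3-KD libraries were above the 3 controls in 6 genes (the 5 called and *Cdk1*) and below them in 1 (*Ccne2*). Of all genes tested 53.4% did not overlap, 34.5% higher and 18.9% lower. More than 2-fold with an unadjusted p under 0.05, the same 5 were higher and *Ccne2* was lower, beside 23.9% and 9.39% of all genes tested. Without control replicate 3 the adjusted test called 3 higher. The median log2 fold change of the 10 genes was 0.80, beside 0.26 over all genes tested. In MFN1-KD the median of the 10 genes was -0.37, beside -0.08.

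*Ccne1* (chromosome 7, 38097984 to 38107534, minus strand), the E-type cyclin with the higher level here, was at 109.96, 81.05 and 59.18 FPKM in control. It was at 217.21, 212.2 and 208.37 FPKM in H3.3-KD, where the 3 libraries were nearly equal. The rise was 2.55-fold in mean FPKM, with a log2 fold change of 1.38 (SE 0.28, interval 0.77 to 2.00, adjusted p = 0.00433) and 1.12 relative to the median gene. Its call held under all 18 alternatives.

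*Cdk2* (chromosome 10, 128697939 to 128705031, minus strand), the kinase that cyclin E activates, was at 87.73, 96.56 and 91.62 FPKM in H3.3-KD, 2.02 times its control mean. All of these values lay above the highest control library (59.79 FPKM), and the log2 fold change was 1.04 (SE 0.26, interval 0.45 to 1.62, adjusted p = 0.0138). Relative to the median gene it was 0.78. The call was lost without control replicate 2 (adjusted p = 0.0504) and without control replicate 3 (0.82, adjusted p = 0.0639), and under median-ratio scaling (0.69, adjusted p = 0.0833), upper-quartile scaling (0.61, adjusted p = 0.104) and removal of the GC and length trend (0.71, adjusted p = 0.0531).

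*Cdc25a* (chromosome 9, 109875579 to 109893895, plus strand), which encodes the phosphatase that frees CDK2 and CDK1 from inhibition, was at 25.9, 20.63 and 13.77 FPKM in control. It was at 77.21, 110.16 and 40.42 FPKM in H3.3-KD. Even the lowest knockdown library, replicate 3, exceeded the highest control, and the rise was 3.78-fold in mean FPKM. The log2 fold change was 1.80 (SE 0.37, interval 0.97 to 2.62, adjusted p = 0.0051) and 1.54 relative to the median gene, called under all 18 alternatives.

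The D-type cyclins rose from low levels. *Ccnd1* (chromosome 7, 144929931 to 144939925, minus strand) was at 1.95, 0.86 and 1.43 FPKM in control and at 4.02, 10.94 and 10.73 FPKM in H3.3-KD. The lowest H3.3-KD library, replicate 1, was still above the highest control. The log2 fold change was 1.91 (SE 0.43, interval 0.95 to 2.86, adjusted p = 0.0079), a value that the pseudocount of 1 holds down at such levels (2.45 with 0.1), and 1.65 relative to the median gene. *Ccnd3* (chromosome 17, 47505051 to 47599691, plus strand) was at 15.13, 15.05 and 10.08 FPKM in control and at 31.21, 67.67 and 28.28 FPKM in H3.3-KD, with replicate 2 the highest. Its log2 fold change was 1.50 (SE 0.39, interval 0.64 to 2.36, adjusted p = 0.0149), and 1.24 relative to the median gene. The call of *Ccnd3* was lost without H3.3-KD replicate 2 (1.11, adjusted p = 0.0594), without control replicate 3 (1.32, adjusted p = 0.0685) and after removal of the GC and length trend (0.66, adjusted p = 0.226).

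*Ccne2* (chromosome 4, 11191351 to 11204779, plus strand), the second E-type cyclin gene, took the direction opposite to *Ccne1*. It was at 17.07, 12.93 and 16.1 FPKM in control and at 5.39, 8.36 and 5.56 FPKM in H3.3-KD. The groups did not overlap and the knockdown mean was 41.9% of control, with a log2 fold change of -1.15 (SE 0.40, interval -2.05 to -0.25, adjusted p = 0.0527). Relative to the median gene the difference was -1.41. It was called without MFN1-KD replicate 1 (adjusted p = 0.0487), without MFN1-KD replicate 3 (0.00731) and under median-ratio scaling (-1.46, adjusted p = 0.012), and under 7 of 18 alternatives in all. Under the other 11 it was not called, and after removal of the GC and length trend the difference was -0.78 (adjusted p = 0.248). The MFN1-KD libraries, spread from 6.03 to 18.64 FPKM, enter the shared estimate of error.

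Promoter windows with an E2F word were found for *Cdc25a* and *Cdk2* among the rising genes, and they are shown with the same marking. The windows are chr9:109875329-109875628 on the plus strand for *Cdc25a* and chr10:128705002-128705301 on the minus strand for *Cdk2*.
Cdc25a: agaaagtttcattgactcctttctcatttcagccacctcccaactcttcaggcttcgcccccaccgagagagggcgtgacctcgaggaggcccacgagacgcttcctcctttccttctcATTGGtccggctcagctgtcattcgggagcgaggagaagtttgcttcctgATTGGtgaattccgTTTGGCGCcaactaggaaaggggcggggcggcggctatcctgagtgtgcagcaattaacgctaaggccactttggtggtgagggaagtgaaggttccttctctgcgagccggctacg
Cdk2: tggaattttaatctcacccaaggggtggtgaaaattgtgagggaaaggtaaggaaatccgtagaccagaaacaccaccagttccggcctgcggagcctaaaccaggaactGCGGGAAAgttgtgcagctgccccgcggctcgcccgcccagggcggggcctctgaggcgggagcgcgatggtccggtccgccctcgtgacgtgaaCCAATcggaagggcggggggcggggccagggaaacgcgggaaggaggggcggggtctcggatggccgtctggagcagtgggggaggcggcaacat
*Cdc25a* held TTTGGCGC, present in 0.514% of all windows, and 2 CCAAT read on the reverse strand. *Cdk2* held TTTCCCGC on the reverse strand (1.07% of all windows) and 1 CCAAT, with no overlap between matches. *Cdk1*, not called here, held TTTCGCGC (0.323% of all windows), and any of the 3 words stood in 1.84%. *Ccne1*, which rose, had none of the words searched in its window, and in *Ccnd3* only 1 of 2 windows held a match, a CCAAT. A window was found for 7 of the 10 genes, all but *Ccna2*, *Ccnd1* and *Ccne2*.

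The mitotic genes were less distant from control in H3.3-KD. *Cdk1* was at 500.38, 433.5 and 459.25 FPKM, above the controls in every library, with a log2 fold change of 0.57 (SE 0.23, interval 0.06 to 1.08, adjusted p = 0.0849). It was called without MFN1-KD replicate 3 (adjusted p = 0.0151), with library weights (0.00412) and in a fit of the 6 libraries alone (0.0216). The other 15 of the 18 alternatives left it uncalled. Over all 18 the estimate for *Cdk1* ran from 0.14 to 0.62, with adjusted p-values up to 0.64. *Ccna2* was at 302.33, 328.11 and 428.69 FPKM and *Ccnb2* at 48.72, 27.99 and 32.69 FPKM, both overlapping control, with intervals of -0.08 to 0.84 and -0.97 to 0.39. The estimate for *Ccna2* was 0.38, and -0.05 under upper-quartile scaling. *Ccnb1*, at 1277.39, 1282.61 and 1785.41 FPKM, had a log2 fold change of 0.07 (interval -0.32 to 0.46). Its sign turned under median-ratio scaling (-0.28), under upper-quartile scaling (-0.36) and without H3.3-KD replicate 3 (-0.09), so it has no stable direction. Relative to the median gene the values were 0.31 for *Cdk1*, 0.12 for *Ccna2*, -0.55 for *Ccnb2* and -0.19 for *Ccnb1*.

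**Figure D2:**
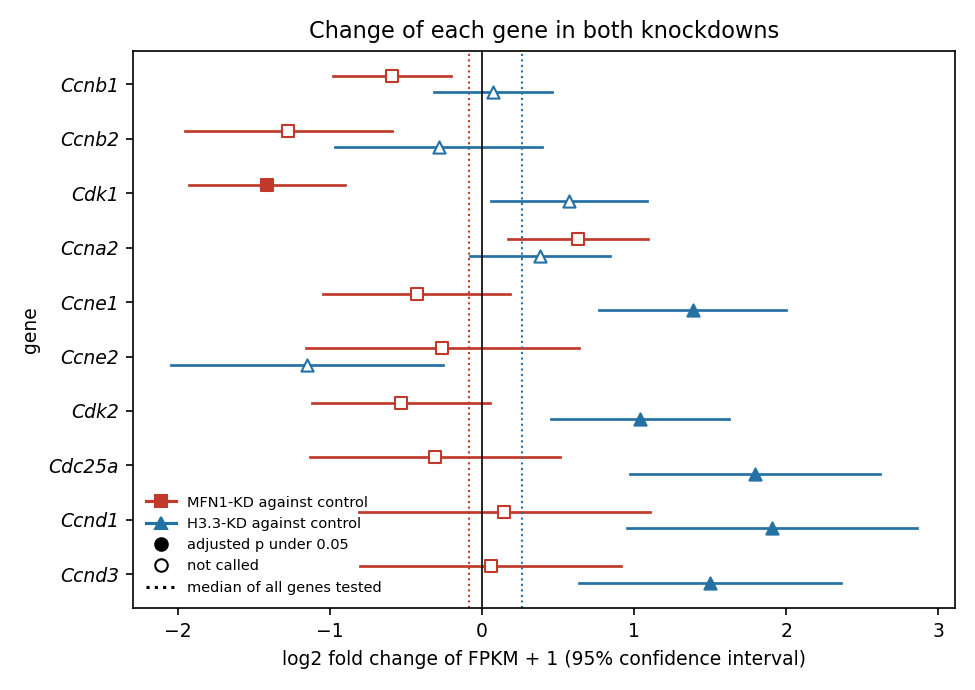
Log2 fold change of FPKM + 1 against control for each of the 10 genes in MFN1-KD (red squares) and H3.3-KD (blue triangles), with 95% confidence intervals as bars, filled symbols for an adjusted p under 0.05 and dotted lines at the median of all genes tested (-0.08 and 0.26). Only *Cdk1* is filled in MFN1-KD, whereas *Ccne1*, *Cdk2*, *Cdc25a*, *Ccnd1* and *Ccnd3* are filled on the right in H3.3-KD.

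Both knockdowns share the 3 control libraries, so their agreement or contrast cannot be read from these comparisons. The difference between them was tested directly. In MFN1-KD 8 of the 10 genes were called lower than in H3.3-KD and 0 higher, where 27.6% of all genes tested were called lower and 11.0% higher. The same 8 did not overlap between the groups and lay lower in MFN1-KD, as 33.1% of all genes tested did, while 14.8% lay higher and 47.9% did not overlap in either direction. At an unadjusted p under 0.05 in this limma fit they were also 8 lower and 0 higher, beside 33.7% and 14.5% of all genes tested. Lower by more than 2-fold with that p were 6 (all of the 8 but *Ccnb1* and *Ccnb2*), beside 29.1% of all genes tested, and 0 were higher, beside 11.0%. The median log2 difference of the 10 genes was -1.51, beside -0.39 over all genes tested.

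*Cdk1* differed by -1.99 (SE 0.23, adjusted p = 1.7e-04), since every MFN1-KD library (81.22 to 140.92 FPKM) lay far under every H3.3-KD library (433.5 to 500.38 FPKM). *Cdc25a* differed by -2.11 (SE 0.37, adjusted p = 0.00158), *Ccne1* by -1.82 (SE 0.28, adjusted p = 7.3e-04) and *Cdk2* by -1.57 (SE 0.26, adjusted p = 0.00125). These 4 differences, and that of *Ccnd1* (-1.76, adjusted p = 0.0092), were called in every alternative in which the gene was tested. *Ccnd3* differed by -1.44 (adjusted p = 0.0143), a call lost without H3.3-KD replicate 2 (-1.06, adjusted p = 0.0585), under upper-quartile scaling (-0.98, adjusted p = 0.0514) and after removal of the GC and length trend (-0.65, adjusted p = 0.209). *Ccnb2* differed by -0.99 (adjusted p = 0.0268), which did not hold without H3.3-KD replicate 1 (-0.77, adjusted p = 0.103) or MFN1-KD replicate 3 (-0.72, adjusted p = 0.0672). That call was lost under 8 of 18 alternatives, among them median-ratio scaling (-0.59, adjusted p = 0.135), upper-quartile scaling (-0.52, adjusted p = 0.194), removal of the GC and length trend (-0.74, adjusted p = 0.0777) and library weights (-0.72, adjusted p = 0.0684). It was lost as well without the filter on low values (adjusted p = 0.0679) and when the 6 libraries were fitted alone (adjusted p = 0.0715). *Ccnb1* differed by -0.66 (adjusted p = 0.013), but by -0.24 (adjusted p = 0.407) after median-ratio scaling.

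*Ccna2* and *Ccne2* were the genes not called between the knockdowns. *Ccna2* had a difference of 0.25 (interval -0.21 to 0.71) and was higher in MFN1-KD after median-ratio scaling (0.67, adjusted p = 0.0453). *Ccne2* had one of 0.89 (interval -0.01 to 1.79). MFN1-KD replicate 3, at 6.03 FPKM, was the only library of its group within the H3.3-KD range of 5.39 to 8.36 FPKM, and without it the difference was 1.36 (adjusted p = 0.00591). The sign turned after removal of the GC and length trend (-0.035, adjusted p = 0.962).

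Ratios taken within a library are independent of how that library was scaled, and they place each cyclin beside its kinase. With 3 libraries against 3, a two-sided exact permutation test cannot give a p under 0.10, so these ratios are described by their values and by whether the groups overlap. *Ccna2* over *Cdk1* was 0.96, 0.91 and 0.73 in control. It was 2.83, 2.86 and 5.65 in MFN1-KD, so the cyclin transcript exceeded the kinase transcript in each library there and in none of the controls. In H3.3-KD the ratio was 0.60, 0.76 and 0.93, overlapping control. The sum of *Ccnb1* and *Ccnb2* over *Cdk1* was 4.52 ± 0.26 in control and 8.20 ± 2.67 in MFN1-KD, and it was 3.21 ± 0.67 in H3.3-KD (SD, n = 3 each). MFN1-KD was above and H3.3-KD below control with no overlap, each at an exact p of 0.10, and MFN1-KD replicate 3 was the highest at 11.3.

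On the cyclin E side the balance of the 2 genes differed in H3.3-KD while their sum relative to the kinase overlapped control. *Ccne1* over *Ccne2* was 6.44, 6.27 and 3.68 in control and 40.3, 25.4 and 37.5 in H3.3-KD. That is 34.4 ± 7.92 against 5.46 ± 1.55 (SD, n = 3 each, exact p = 0.10), with no overlap. MFN1-KD, at 5.03 ± 1.94, overlapped control. The sum of both over *Cdk2* was 2.19 ± 0.12 in control and 2.39 ± 0.13 in H3.3-KD, overlapping (exact p = 0.20). It was 2.58 ± 1.09 in MFN1-KD, with 1.37 in replicate 3 as the lowest value. The summed FPKM of all 10 genes was 2169 ± 110 for control, 1595 ± 23.0 for MFN1-KD and 2740 ± 304 for H3.3-KD, with no overlap between any groups. *Ccnb1* made up 62.9% of it for control, 56.7% for MFN1-KD and 52.5% for H3.3-KD. Unlike the ratios, the sum depends on how the libraries were scaled. Its mean log2 difference from control was 0.33 in H3.3-KD, beside a median of 0.26 over all genes tested.

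**Figure D3:**
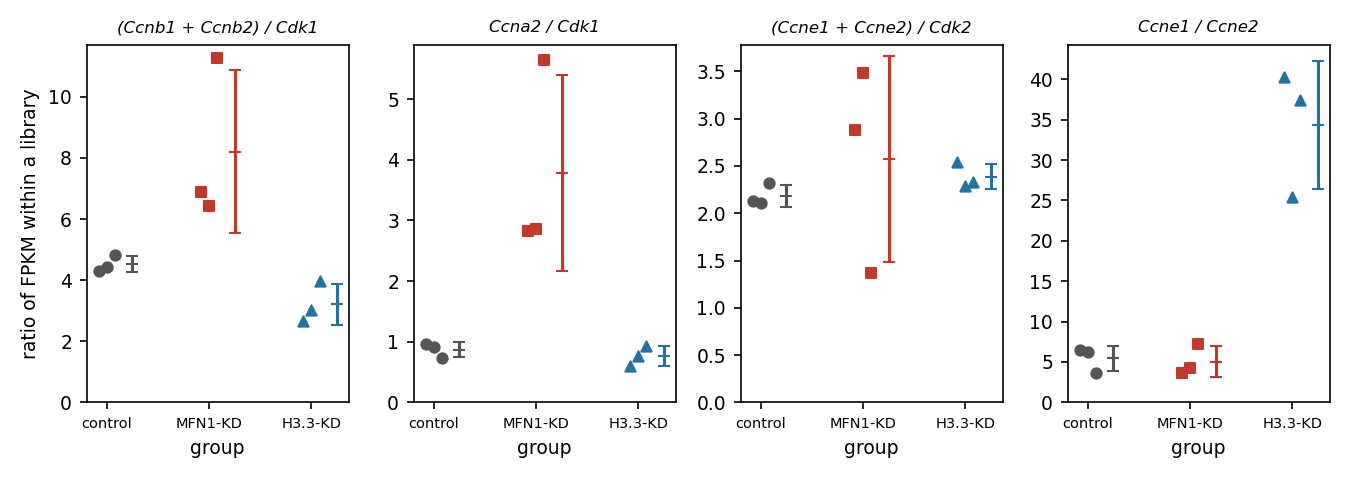
Ratios of FPKM within each library for 4 combinations of cyclins and kinases, with points for libraries and, beside them, the mean and SD of the 3 libraries of each group. *Ccna2* over *Cdk1* is above 2.8 in every MFN1-KD library and under 1 in every other library, and *Ccne1* over *Ccne2* is above 25 only in H3.3-KD.

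Across the 9 libraries the genes fell along a few shared patterns, given here as a description, since the groups themselves set much of any correlation. On log2(FPKM + 1), the pairs with the highest Pearson r were *Ccnd3* with *Cdc25a* (0.93), *Ccne1* with *Cdc25a* (0.92) and *Ccne1* with *Cdk2* (0.92). *Cdk1* had r = 0.86 with *Ccnb1* and 0.85 with *Ccnb2*. *Ccna2* ran against *Ccnb2* (r = -0.80) and *Cdk1* (r = -0.52), and *Ccne2* against *Cdk2* (r = -0.67) and *Ccne1* (r = -0.51). Among the entries with a mean of at least 10 FPKM, the one most like *Cdk1* was *Med22*, of the Mediator complex (r = 0.99), at 34.7, 8.37 and 81.9 FPKM on average in control, MFN1-KD and H3.3-KD. *Rnf114*, an E3 ubiquitin ligase gene, was most like *Ccne1* (r = 0.99), *Ifrd2* most like *Cdc25a* (r = 0.99), and *Polr3c*, a subunit of RNA polymerase III, most like *Cdk2* (r = 0.98). The others were *Nip7* for *Ccnb1*, *Psmg3* for *Ccnb2*, *Tial1* for *Ccna2*, *Ube2g1* for *Ccnd3*, *Gm11703* for *Ccne2* and *Gm5543* for *Ccnd1*, with r from 0.95 to 0.98.

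Smart-Seq2 libraries do not mark the strand, so reads from genes that overlap on opposite strands cannot be told apart. Of the 10 genes, 5 overlap such a neighbour in the annotation. *Ccnd3* overlaps *Bysl*, whose mean was 19.9 FPKM in control against 49.4 in H3.3-KD, and *Cdk2* overlaps *Pmel*, at 3.49 against 8.07 FPKM. In both the H3.3-KD libraries were all above the controls, as in *Ccnd3* and *Cdk2* themselves. *Ccnd1* overlaps *LTO1*, at 127 against 41.7 FPKM, the direction opposite to that of *Ccnd1*, with no overlap between the groups either. *Ccna2* overlaps *Exosc9*, at 50.1 against 38.8 FPKM with overlapping libraries, and *Ccne2* overlaps *Ints8*, at 44.5 against 24.7 FPKM without overlap. Within *Cdc25a* the annotation holds the microRNA gene *Mir7089* on the same strand. A processed copy, *Ccnb1-ps*, had a mean of 16.6 FPKM in control against 34.9 in H3.3-KD, so reads may be split between it and *Ccnb1*, whereas *Ccnb2-ps* and *Ccnd3-ps* had a mean under 1 FPKM. In MFN1-KD the mean of *Ccnb1-ps* was 9.23 FPKM, with libraries overlapping control. That of *Exosc9* was 36.4 FPKM in MFN1-KD, with all libraries below control. How reads were assigned is not given in the sources used here.

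The 10 genes work among regulators that were grouped into 9 lists of 122 symbols, of which 120 were in the tables and 106 were tested. In MFN1-KD 1 of the 106 rose and 3 fell, shares close to the 1.15% and 2.2% of all genes tested. *Plk4*, the kinase of centriole duplication, rose from 45.1 to 145 FPKM (1.59, adjusted p = 0.0342). *Aurkc*, an Aurora kinase of germ cells and early embryos, fell from 93.4 to 12.8 FPKM (-2.92, adjusted p = 0.0283). *Chek2*, a DNA damage checkpoint kinase (-1.11, adjusted p = 0.0458), and *Cdk7*, which phosphorylates the activation loop of CDK1 and CDK2 (-0.98, adjusted p = 0.0499), fell too. Every one of these 4 calls was lost when any control library was left out, with adjusted p-values from 0.0527 to 0.192. The call of *Plk4* was also lost without H3.3-KD replicate 1 or 2 or MFN1-KD replicate 1, that of *Aurkc* without H3.3-KD replicate 2, and those of *Chek2* and *Cdk7* without any H3.3-KD library and without MFN1-KD replicate 3, as well as replicate 1 (*Chek2*) or 2 (*Cdk7*). All 4 calls were lost too without the filter on low values and in a fit of the 6 libraries alone. Removal of the GC and length trend took away those of *Plk4* (adjusted p = 0.0536), *Chek2* (0.0623) and *Cdk7* (0.0745). The call of *Cdk7* was further lost under median-ratio scaling (adjusted p = 0.0533), upper-quartile scaling (0.052) and a pseudocount of 0.1 (0.0545). Without H3.3-KD replicate 3, MFN1-KD replicate 2 or MFN1-KD replicate 3, 2 of the 106 rose in place of 1. At an unadjusted p under 0.05, 19 of the 106 were higher and 14 were lower, beside 9.21% and 14% of all genes tested.

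In H3.3-KD 35 of the 106 rose and 14 fell, beside 21.8% and 9.12% of all genes tested, the shares against which the count of each list is to be read. The median log2 fold change of the 106 was 0.59. The anaphase-promoting complex (APC/C), which marks B-type cyclins for destruction, was split, with 8 of 19 higher and 5 lower. *Ube2s*, its ubiquitin-chain elongating enzyme, rose from 19.3 to 942 FPKM (5.54, adjusted p = 7.6e-05) and *Anapc7* from 43.6 to 232 FPKM (2.37), while *Anapc10* fell from 379 to 131 FPKM (-1.53). Among CDC25 paralogs, inhibitory kinases and CKS subunits, a list that also holds *Mnat1*, 1 of 8 rose. This was *Pkmyt1*, a kinase that inhibits CDK1, which went from 1.53 to 21.5 FPKM (3.15, adjusted p = 1.6e-04). One of the 8 fell, *Cks1b*, which encodes a small CDK-binding subunit (-0.85, adjusted p = 0.0123), a call lost without control replicate 2 (0.0593) or replicate 3 (0.0559) and after removal of the GC and length trend (0.101).

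The counts of the next lists stand beside 21.8% of all genes tested that rose and 9.12% that fell. Of 16 genes of the E2F, RB and DREAM-MuvB network, which controls transcription of cell cycle genes, 7 rose and 0 fell (1 at an unadjusted p under 0.05 in limma), with *Rbbp4* at 2.16 and *Mybl2* at 1.92. Of 13 other CDKs 5 rose and 0 fell (0 also at an unadjusted p under 0.05), among them *Cdk9* (2.38) of transcription elongation and *Cdk4* (1.08), the partner of D-type cyclins. Of 16 other cyclins 7 rose and 2 fell, with *Ccnf* rising from 10.3 to 55.4 FPKM and *Ccnc* (-1.31) and *Ccnh* (-1.07), the partner of CDK7, falling. The calls of *Cdk4* and *Ccnh* were lost after removal of the GC and length trend (adjusted p = 0.0503 and 0.154). Of 14 mitotic kinases and regulators of the Greatwall branch 5 rose, among them *Aurka* from 76.3 to 351 FPKM (2.15) and *Plk2* (2.69), and 2 fell. These were *Arpp19*, an inhibitor of the phosphatase PP2A (-1.37), and *Aurkc* (-1.62), whose call was lost without either H3.3-KD replicate 1 or 2 or control replicate 2 or 3, with adjusted p-values from 0.0582 to 0.0811.

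For the components of ubiquitin ligases of cyclins and CDC25A, 2 of 8 rose (*Fbxw11*, 1.62, and *Ambra1*, 1.60) and 2 fell (*Rbx1*, -1.63, and *Cul3*, -1.24). Of all genes tested 21.8% rose and 9.12% fell. FBXW11 and RBX1 belong to SCF ligases, whereas AMBRA1, which marks D-type cyclins for degradation, and CUL3 belong to other cullin ligases. The call of *Cul3* was lost without any control library and without H3.3-KD replicate 1 or 2, with adjusted p-values from 0.0587 to 0.101, without the filter on low values (0.0862) and after removal of the GC and length trend (0.116). Of 6 DNA damage checkpoint kinases and partners 0 rose (0 also at an unadjusted p under 0.05) and 2 fell, *Atm* from 36.2 to 9.95 FPKM (-1.77, adjusted p = 7.1e-04) and *Atr* (-0.91, adjusted p = 0.0444). The call of *Atr* was lost without any control or H3.3-KD library and without MFN1-KD replicate 1, with adjusted p-values from 0.0502 to 0.13. It was also lost without the filter on low values (0.0764) and after removal of the GC and length trend (-0.46, adjusted p = 0.25). Of 6 CDK inhibitors tested, 0 were called by limma against control in either knockdown, although at an unadjusted p under 0.05 there was 1 with higher values after *Mfn1* silencing and 2 after H3.3 silencing. Over the 9 lists the 35 genes that rose became 23 without control replicate 2 and 22 without control replicate 3.

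**Figure D4:**
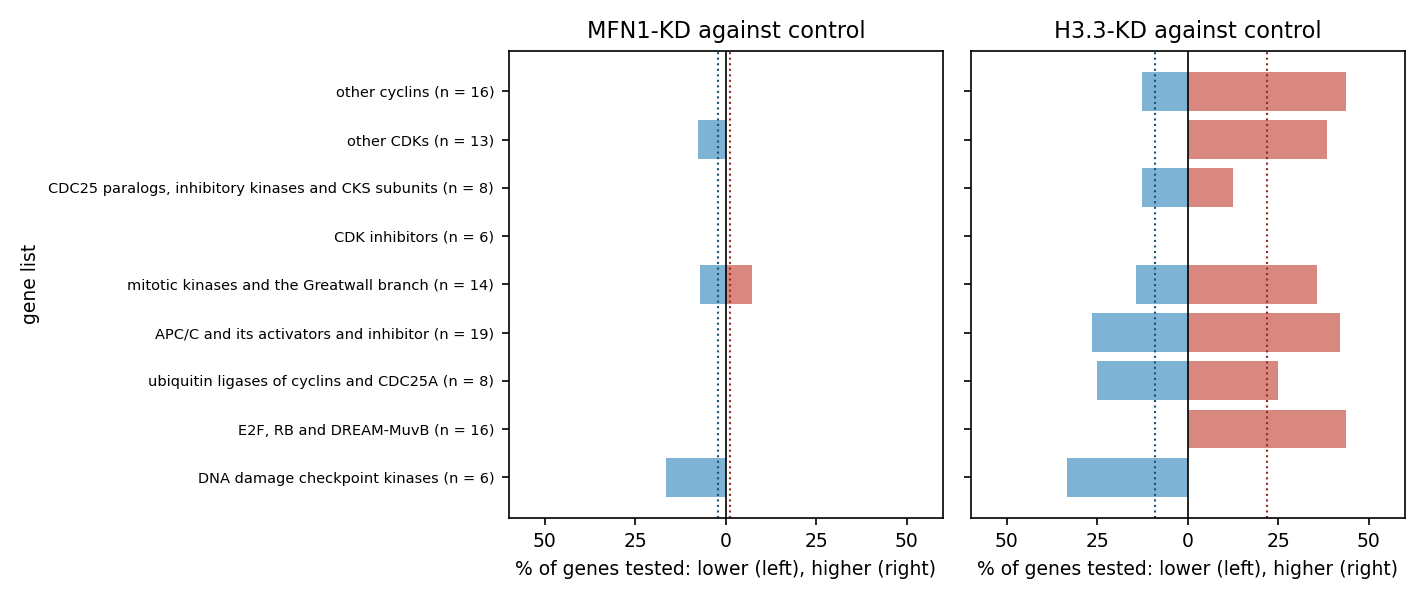
Share of the tested genes of each of 9 lists of cell cycle regulators called lower (bars to the left, blue) and higher (bars to the right, red) at an adjusted p under 0.05 against control (left panel MFN1-KD, right panel H3.3-KD), with dotted lines at the share of all genes tested (2.2% and 1.15%, 9.12% and 21.8%). In MFN1-KD bars appear in 3 lists only, and in H3.3-KD the CDK inhibitors alone have none.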

How the data were processed

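RNA of 8-cell mouse embryos was measured in 9 libraries, 3 per group, and groups follow the sample labels. The authors deposited FPKM values per gene symbol. According to the submitters' processing notes reads were trimmed with cutadapt 1.16 and mapped with STAR to mm10, and the study tested them with DESeq2. The program behind FPKM, its annotation and the strand setting are not given in the sources used here. No counts were used, so depth is unknown and no counting interval is given.

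From the deposited FPKM, log2(FPKM + 1) of the 13011 entries with a mean of at least 1 FPKM was fitted over all 9 libraries with limma 3.58.1 (trend and robust options, no covariate, two-sided) under R 4.3.3, and p-values were adjusted by Benjamini-Hochberg over these entries. limma stands in for the count model of the study. Ratios within libraries were compared by two-sided exact permutation tests. Tables and plots used Python 3.11.15, pandas 2.3.3, scipy 1.17.1 and matplotlib 3.10.9. Positions come from GENCODE release M21 (GRCm38) and promoters from RefSeq.

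The 10 genes, the lists and the tests were chosen with earlier results of these data known. Named beside them are the targeted genes, for each of the 10 the entry with the highest Pearson r among those with a mean of at least 10 FPKM, every listed regulator called in MFN1-KD, and for H3.3-KD up to 2 per list with the smallest p in each direction. Neighbouring genes, pseudogenes and markers come from the annotation and fixed lists. Alternatives were scaling by median ratios or upper quartiles, a filter at 10 FPKM or none, 0.1 as pseudocount, a fit of the 6 libraries compared, a replicate block, library weights, a correction for GC content and transcript length in each library (splines with 5 degrees of freedom), and leaving out each library. Their use on the regulator lists and ratios was added after seeing the data.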

Additional observations from a re-analysis of the deposited data

How the results depend on the processing

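For the 10 genes in 3 comparisons, 537 values were recomputed under 18 alternatives, and 475 kept their direction and side of the threshold, 29 lost a call, 21 gained one and 12 turned in sign. Genes called lower in MFN1-KD (main count 1) numbered 2 under median-ratio scaling, upper-quartile scaling and a mean of at least 10 FPKM (*Ccnb2* added), 3 with library weights, 0 with no filter or only the 6 libraries compared, and 0 to 1 without single libraries. By the 2-fold threshold they numbered 1 after removal of the GC and length trend in place of 2. In H3.3-KD 3 were called higher after removal of that trend and 3 to 6 without single libraries, and 1 was called lower (*Ccne2*) under median-ratio and upper-quartile scaling, a mean of at least 10 FPKM, library weights and the 6 libraries, and 0 to 1 without single libraries. By the 2-fold threshold 3 were higher under upper-quartile scaling or GC and length correction, and 0 lower with library weights or that correction (0 to 1 without single libraries). Between the knockdowns 2 were higher in MFN1-KD under median-ratio and upper-quartile scaling, 1 with library weights and 0 to 1 without single libraries, and 5 were lower under upper-quartile scaling. By the 2-fold threshold 1 was higher under both scalings and with weights (0 to 1 without single libraries). Signs turned for *Ccnd3* (-0.042) and *Ccne2* (0.19) in MFN1-KD with library weights, for *Ccnb1* (-0.28 and -0.36) in H3.3-KD under median-ratio and upper-quartile scaling, for *Ccna2* (-0.049) in H3.3-KD under the latter, and for *Ccne2* between the knockdowns (-0.035) after GC and length correction. Without single libraries the value in MFN1-KD ran from -0.029 to 0.42 for *Ccnd1*, from -0.22 to 0.23 for *Ccnd3* and from -0.53 to 0.21 for *Ccne2*, and that of *Ccnb1* in H3.3-KD from -0.090 to 0.15. The cause was not tested. *Ccnd1* gave no value at a mean of at least 10 FPKM. Calls over all genes tested moved as well. In MFN1-KD 150 higher and 286 lower became 570 and 823 with library weights, and 6 and 25 with the replicate block. They became 0 and 2 with no filter, and 0 and 0 with the 6 libraries compared or without control replicate 2 or 3. In H3.3-KD 2841 higher and 1187 lower became 2153 and 907 after GC and length correction, and 4734 and 2246 with library weights.

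Of the regulators in the 9 lists, 1 higher and 3 lower in MFN1-KD became 3 higher under upper-quartile scaling, 4 and 5 with a mean of at least 10 FPKM, 9 and 7 with library weights, 0 and 1 after GC and length correction, and 0 and 0 with no filter or the 6 libraries. Without single libraries they were 0 to 2 and 0 to 3. The 35 higher in H3.3-KD became 22 with a mean of at least 10 FPKM, 55 with library weights, 23 after GC and length correction and 22 to 42 without single libraries, and the 14 lower became 22 under upper-quartile scaling.

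Samples with the same replicate number deviated together weakly at most, with correlations of deviations from the group means from -0.05 to 0.16. For samples with different numbers they ran from -0.12 to 0.07. The numbers are not taken as pairs, though a weak pairing is not excluded. With the replicate block 0 of the 10 genes were called lower in MFN1-KD (*Cdk1* at an adjusted p of 0.0505), and 0 regulators were called higher and 0 lower.

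Since read depth is unknown, how it limits low values such as those of *Ccnd1* could not be given.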

Other observations

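Libraries of 1 group differed from each other in a way shared by several of the genes. In control, replicate 1 held the highest value of 8 of the 10 genes and replicate 3 the lowest of 5 (*Ccna2*, *Ccnd3*, *Ccne1*, *Cdk2* and *Cdc25a*), while *Ccnb1* and *Ccnb2* were highest in replicate 3. Summed over all entries, control replicate 1 had 1113563 FPKM, against 1292513 and 1331977 in replicates 2 and 3. The share of all genes with these orders was not computed, so they are not shown to be particular to the 10 genes. In MFN1-KD, replicate 3, the library with the fewest entries above 0 FPKM, held the lowest value of 5 genes (*Ccnb2*, *Ccnd1*, *Ccne1*, *Ccne2* and *Cdk1*) and the highest of *Ccna2* and *Cdk2*.

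The spread also differed between genes. The coefficient of variation of FPKM over 3 libraries was 4.85% for *Cdk1*, 5.25% for *Ccnb2* and 5.84% for *Ccnb1* in control, against 30.5% for *Ccne1*, 30.0% for *Cdk2* and 30.3% for *Cdc25a*. In H3.3-KD it was 2.09% for *Ccne1* and 4.81% for *Cdk2* but 45.9% for *Cdc25a* and 51.8% for *Ccnd3*. In MFN1-KD it was 1.87% for *Ccnb1* and 27.9% for *Cdk1*. With 3 libraries per group no test of these spreads was made.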
